A study of Mus musculus with 4 samples.

Results

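The genes described are Shh and 7 of its neighbours on mouse chromosome 5, namely Rbm33, Rnf32, Lmbr1, Nom1, Mnx1, Ube3c and Dnajb6. They were chosen by gene symbol, as the genes around the limb enhancer of Shh, and they make up 8 of the 25239 genes in the count table. All 8 were measured and all 8 passed the filter on low counts. RNA had been sequenced from hindlimb bud cells of mouse embryos of the FVB strain at embryonic day 11.5. Cells from the anterior of the bud that expressed the red fluorescent protein mCherry were compared with cells from its centre that did not, with 2 libraries of each. Every library came from animals labelled wild-type that carried the same reporter transgene, and the labels name no change at the endogenous Shh locus in either group. In that transgene, placed at the H11 site, the hsp68 promoter and a human ZRS with the 404G>A base change drive mCherry. The reporter therefore marks cells in which the altered human enhancer is active, and it is not a change at the mouse locus. The labels do not say how many embryos were pooled or whether the libraries of a group came from separate embryos, so p-values measure only the spread between these libraries.

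Shh encodes a secreted signal that patterns the limb from a small posterior region, the zone of polarizing activity, and it is normally silent in the anterior bud. Its limb expression depends on the ZRS, an enhancer that lies far from Shh inside an intron of the neighbouring gene Lmbr1. Single-base changes in the ZRS are known to cause Shh expression at the anterior margin of the limb and extra digits. The comparison asks what Shh and the genes that share its chromosomal neighbourhood did in anterior cells where a variant copy of the enhancer was active. The groups differed in both position and reporter state, with no anterior library without mCherry and no central library with it. Differences tied to position and to reporter state therefore cannot be told apart.

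On the mm10 build and the GENCODE M21 annotation, Shh lies on the minus strand of chromosome 5 at chr5:28456815-28467256. Rbm33 is the only one of the other 7 on the far side of Shh, with its start 150 kb away. In the direction of the enhancer, the annotated starts follow at 729 kb for Rnf32, 911 kb for Lmbr1, 967 kb for Nom1, 1011 kb for Mnx1, 1102 kb for Ube3c and 1268 kb for Dnajb6. Lmbr1 spans chr5:29229802-29378390 on the minus strand, and the fifth intron of its transcript Lmbr1-201, the one known to hold the ZRS, spans chr5:29292950-29323801, between 826 and 857 kb from the Shh start. Ube3c spans chr5:29569242-29676092 on the plus strand. The exons of Lmbr1 and Rnf32 do not overlap. Shh shares 446 bases of exon with the antisense gene 9530036O11Rik, which had at most 2 counts in any library. It also shares 361 bases with Gm26894, a noncoding RNA gene on the opposite strand. Gm26894 is not in the count table, so its reads could not be checked. Dnajb6 shares 249 bases with Gm5129, which runs on the opposite strand and had at most 4. Whether strand was used in counting is not given in the sources used here, so reads of such overlapping genes cannot be told apart.

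The RefSeq promoter table for GRCm38.p6 held 7 of the 8 genes, all but Shh. The 250 bases before the start are shown, 5′ to 3′ on each gene's own strand, for Lmbr1 as the gene that hosts the enhancer, for Ube3c as the gene of the locus that passed the test between populations, and for Nom1 and Dnajb6 as the genes in whose windows the 7 letters searched, a form of the ETS site, were found. ETS factors such as Etv4 and Etv5 are known to bind the ZRS. Capitals mark the letters CCGGAAG or their reverse complement CTTCCGG, searched on both strands. The windows are chr5:29378391-29378640 on the minus strand for Lmbr1, and on the plus strand chr5:29568992-29569241 for Ube3c, chr5:29434417-29434666 for Nom1 and chr5:29735648-29735897 for the first of 2 Dnajb6 start sites.
Lmbr1: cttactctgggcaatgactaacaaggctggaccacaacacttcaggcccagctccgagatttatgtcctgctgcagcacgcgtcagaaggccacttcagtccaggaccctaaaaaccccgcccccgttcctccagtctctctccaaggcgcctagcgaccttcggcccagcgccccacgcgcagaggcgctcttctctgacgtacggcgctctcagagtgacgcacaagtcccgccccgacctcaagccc
Ube3c: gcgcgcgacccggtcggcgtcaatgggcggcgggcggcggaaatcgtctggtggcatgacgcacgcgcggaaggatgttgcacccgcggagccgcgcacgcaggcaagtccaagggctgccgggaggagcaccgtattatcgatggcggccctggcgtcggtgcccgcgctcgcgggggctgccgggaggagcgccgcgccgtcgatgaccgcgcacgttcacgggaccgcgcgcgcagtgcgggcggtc
Nom1: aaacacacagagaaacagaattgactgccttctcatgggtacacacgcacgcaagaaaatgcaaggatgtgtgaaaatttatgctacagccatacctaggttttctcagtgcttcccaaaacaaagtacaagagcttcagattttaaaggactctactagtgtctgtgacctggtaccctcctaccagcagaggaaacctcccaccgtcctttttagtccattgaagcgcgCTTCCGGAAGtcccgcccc
Dnajb6: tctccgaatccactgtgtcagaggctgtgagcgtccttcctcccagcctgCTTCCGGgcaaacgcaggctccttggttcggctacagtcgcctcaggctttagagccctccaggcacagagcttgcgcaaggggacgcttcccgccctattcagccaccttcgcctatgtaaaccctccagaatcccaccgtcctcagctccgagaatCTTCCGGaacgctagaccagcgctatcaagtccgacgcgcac
In Nom1 the 2 matches overlap on opposite strands as a single palindrome of 10 letters whose first base is 19 bases before the start. Dnajb6 has matches whose first bases lie 200 and 42 bases before this start site. The same letters occur in 6.9% of the 32851 promoter windows of the table. A search for the E-box CATCTG or CAGATG, the core of one class of helix-loop-helix sites that occurs in 14.4% of windows, found none in the 7 genes. The windows held 7 CpG dinucleotides in Nom1, 18 in Lmbr1, 21 in Mnx1, 29 in Rnf32, 34 in Rbm33 and 46 in Ube3c. Those of the 2 Dnajb6 start sites held 18 and 28, and the median over all windows was 6. Such matches describe the letters only.

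Library totals ranged from 30080925 to 33257383 counts, with 16476 to 17244 genes detected per library. Levels are given in CPM, counts per 1 M counts of the TMM-scaled library, on which scale a floor of 3 counts is 0.0899 to 0.102 CPM. Between replicates, the median absolute log2 ratio over all tested genes was 0.123 in the anterior and 0.15 in the central libraries. Limb mesenchyme markers summed to between 2253 and 2668 CPM in every library, and all 7 were present. Single markers differed, with Msx1 at 238 and 253 CPM in the anterior against 29.2 and 22.3 in the central libraries. In edgeR Msx1, Prrx2 and Twist1 were called higher and Pdgfra lower in anterior cells, while Prrx1, Tbx4 and Pitx1 were not called. Of the markers of the anterior bud, Pax9 measured 27.7 and 21.9 CPM in the anterior and 3.44 and 1.27 CPM in the central libraries, and Alx1 2.10 and 3.99 against 0.779 and 0.618. Alx4 measured 21 and 37.7 against 54.3 and 36.4 CPM, with overlap between the groups. Markers of red blood cells summed to 3287 and 8382 CPM in the anterior libraries and to 5.0 and 7.91 CPM in the central ones, while those of muscle precursors, cartilage and ectoderm were higher in the central libraries. The part of these differences in the results below was not tested.

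Shh, the signal itself, measured 27.4 CPM in anterior replicate 1, 11.7 in anterior replicate 2, 13.3 in central replicate 1 and 12.2 in central replicate 2. Anterior replicate 1 stood above the other 3 libraries, and anterior replicate 2 lay below both central libraries, so the groups overlapped. The means were 19.6 ± 11.1 CPM (SD, n = 2) in anterior and 12.7 ± 0.761 in central cells. The log2 fold change of anterior over central was 0.63 ± 0.32 SE, with a 95% interval of -0.10 to 1.36, and did not pass edgeR's quasi-likelihood test (adjusted p-value 0.203). In bulk samples such as these, fewer cells of a type and less RNA per cell cannot be told apart. With anterior replicate 1 left out, the edgeR log2 fold change became -0.11 with an adjusted p-value of 0.785, and with anterior replicate 2 left out it became 1.11 with an adjusted p-value of 0.000320. In each of these fits the single remaining library was assumed to vary like the other group.

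Few genes differed as much as Shh between the anterior replicates. Shh was 2.33-fold higher in anterior replicate 1 than in anterior replicate 2, on 913 and 344 counts. The exact Poisson intervals at 95% were 25.6 to 29.2 and 10.5 to 13.0 CPM. They cover counting error only and are too narrow if both mates of a pair were counted. A ratio at least as far from 1 was found between the anterior libraries in 790 of the 14610 tested genes (5.41%). Among the 3402 other genes within 2-fold of the mean level of Shh it was found in 28, or 0.823%. The central replicates of Shh differed 1.09-fold.

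Of those 28 genes, 18 were higher in anterior replicate 1. Many of these 18 reached the level of Shh through the central libraries, with few anterior counts. In edgeR 13 of the 18 were called lower in anterior cells, 0 were called higher and 5 were not called. Over all tested genes 12.3% were called lower and 10.7% higher. Choosing by mean level and by a large anterior gap favours genes that are lower in anterior cells. The calls among the 18 therefore cannot be weighed against these shares. Among the 18, chosen after their values were seen, was Isl1, a factor of the early posterior hindlimb, at 4.56 CPM in anterior replicate 1 against 0.682 in replicate 2 and 22.1 and 23.6 in the central libraries. Osr1, a mesenchymal transcription factor, measured 2.85 and 0.682 CPM in the anterior and 57.3 and 48.8 in the central libraries. The retinoic acid synthesis gene Aldh1a2 measured 30.0 and 9.82 CPM in the anterior against 37.7 and 25.6 in the central libraries. The 18 also held Irx3, at 1.62 and 0.545 CPM in the anterior against 66.2 and 49.0 in the central libraries. Irx5, Cntfr, Agtr2 and Nr2f1 were among them too, all called lower in anterior cells. All 6 listed markers of posterior limb mesenchyme (Hand2, Tbx2, Osr1, Hoxd12, Ptch1, Gli1) were higher in anterior replicate 1 than in replicate 2, 2 of them at least 2-fold, and their sum was 868 against 673 CPM. Their sum was 983 and 993 CPM in the central libraries. Of the 6, Hoxd12 was called higher in anterior cells, at 240 and 197 against 127 and 95.7 CPM (adjusted p-value 0.00123 in edgeR), and 4 were called lower. Tbx2, a T-box gene of that list, measured 89.5 and 38.3 CPM in the anterior against 90.1 and 56.5 in the central libraries, and the related Tbx3 measured 53.0 and 26.6 against 61.7 and 66.8. The part of these markers in the Shh value was not tested.

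Markers of other tissues that express Shh were low. Of 7 floor plate and notochord markers, Foxa2, Noto and Nkx2-2 had 0 counts in all 4 libraries. That list summed to 5.25 and 3.82 CPM in the anterior and 78.2 and 77.1 CPM in the central libraries, where nearly all of it was Ntn1, which limb mesenchyme also expresses. Of the motor neuron markers, Lhx3, Olig2 and Chat had 0 counts in all libraries, and the highest was the neuronal tubulin Tubb3, at 9.56 and 8.8 CPM in the anterior and 8.51 and 6.77 CPM in the central libraries. Gut and urogenital markers summed to 1.56 and 2.11 CPM in the anterior and 3.93 and 11.6 CPM in the central libraries.

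The genes whose pattern over the 4 libraries was most like that of Shh were ranked by the root mean square difference of centred log2 CPM among 10595 genes with a mean of at least 5 CPM. First was Bmp2, a bone morphogenetic protein ligand, with a difference of 0.14. Bmp2 measured 33.9, 12.2, 17.9 and 15.0 CPM in anterior replicates 1 and 2 and central replicates 1 and 2, a 2.77-fold gap between the anterior replicates. It was followed by the p53-induced cell cycle gene Rprm at 0.17, the semaphorin Sema5b at 0.18, the inducible heat shock gene Hspa1b at 0.22 and the sodium pump subunit Atp1b2 at 0.23. None of the 5 passed edgeR's test between populations. Sema5b came nearest, at 15.3 and 8.73 CPM in the anterior and 7.47 and 6.74 CPM in the central libraries (log2 fold change 0.76, adjusted p-value 0.0688). Without anterior replicate 1 its log2 fold change was 0.30 (edgeR adjusted p-value 0.51), and it was called without anterior replicate 2 (1.11, 0.00371) or central replicate 1 (0.84, 0.0452). With 4 libraries, such likeness rests mainly on the gap between the anterior replicates.

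**Figure D1:**
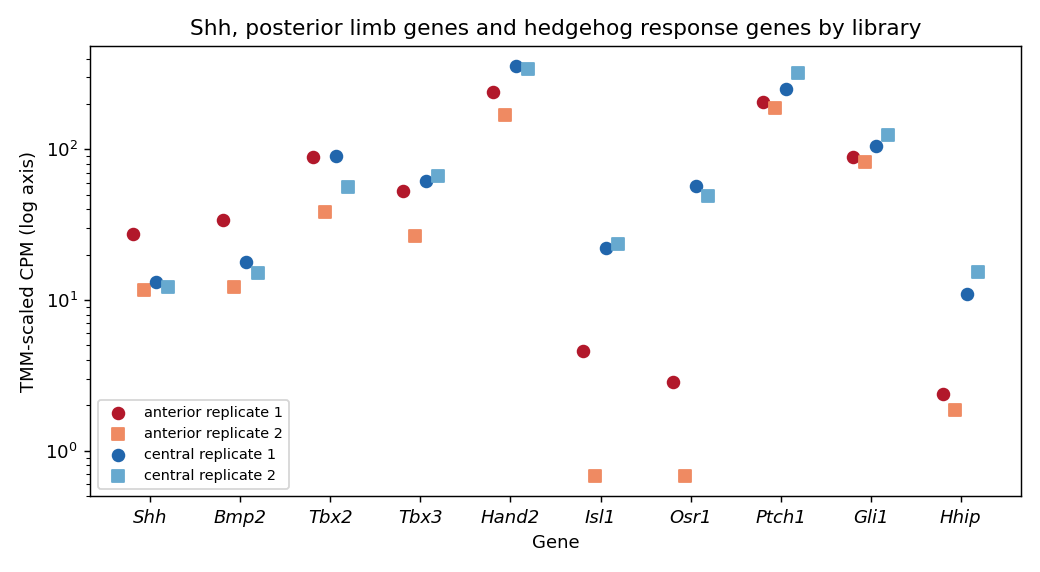
TMM-scaled CPM on a log axis for Shh and limb genes, with 1 point for each of the 2 anterior and 2 central libraries. Shh in anterior replicate 1 sits at 27.4 CPM, apart from the other 3 libraries at 11.7 to 13.3 CPM.

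Lmbr1, a membrane protein gene known chiefly as the host of the ZRS, measured 11.3 and 9.72 CPM in the anterior and 13.0 and 11.2 CPM in the central libraries. The groups overlapped, since anterior replicate 1 lay just above central replicate 2. The log2 fold change of Lmbr1 was -0.20 ± 0.17 SE, with a 95% interval of -0.59 to 0.19 (edgeR adjusted p-value 0.45). Anterior replicate 1, which was high for Shh, differed 1.16-fold from anterior replicate 2 for Lmbr1, a gap that 32.5% of tested genes reached or exceeded.

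Rnf32, a RING finger gene whose end lies beside that of Lmbr1, had the lowest mean CPM of the 8 in each group. In central replicate 1 Mnx1 was lower than Rnf32, at 1.40 CPM. Rnf32 was measured on few counts. It had 46 and 54 counts in the anterior and 66 and 52 in the central libraries, or 1.38, 1.84, 2.14 and 1.61 CPM, and the groups overlapped. Its log2 fold change was -0.22 ± 0.40 SE (edgeR adjusted p-value 0.743). Without central replicate 1 it was 0.0028, so its direction was not determined.

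Mnx1, a homeobox gene of motor neurons and pancreas that lies beyond Lmbr1, had 97, 64, 43 and 85 counts, or 2.91 and 2.18 CPM in the anterior and 1.40 and 2.63 CPM in the central libraries. Its central replicates differed 1.88-fold, a gap that 7.04% of tested genes reached, and the groups overlapped. The log2 fold change was 0.34 ± 0.40 SE with a 95% interval of -0.58 to 1.26 (edgeR adjusted p-value 0.60). It was -0.041 without central replicate 1 and 0.87 without central replicate 2. The 95% intervals ran from 0.67-fold to 2.39-fold for Mnx1 and from 0.458-fold to 1.61-fold for Rnf32.

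Ube3c, an E3 ubiquitin ligase of the HECT class that extends ubiquitin chains at the proteasome, was the only one of the 8 genes to pass the test. It measured 108 and 118 CPM in the anterior and 91.9 and 93.7 CPM in the central libraries, and both anterior libraries lay above both central ones. The means were 113 ± 7.11 against 92.8 ± 1.25 CPM (SD, n = 2). Ube3c was 1.22-fold higher in anterior cells, with a log2 fold change of 0.28 ± 0.074 SE, a 95% interval of 0.11 to 0.45 and an edgeR adjusted p-value of 0.0253. Its adjusted p-value ranged from 0.0103 to 0.0404 over the alternatives that kept all libraries. Without anterior replicate 2 the call was lost, with a log2 fold change of 0.22 and an edgeR adjusted p-value of 0.232.

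The broadly expressed genes of the locus differed little. Dnajb6, a co-chaperone of the HSP40 family, measured 126 and 130 CPM in the anterior and 113 and 119 CPM in the central libraries without overlap (log2 fold change 0.14 ± 0.067 SE, 95% interval -0.0096 to 0.30, edgeR adjusted p-value 0.166). Nom1, a nucleolar protein gene, measured 54.2 and 53.9 against 50 and 52.8 CPM, also without overlap (log2 fold change 0.072 ± 0.081 SE, adjusted p-value 0.577). Rbm33, an RNA-binding protein gene on the far side of Shh, measured 172 and 176 against 156 and 173 CPM, with overlap (log2 fold change 0.080 ± 0.071 SE, adjusted p-value 0.471). The upper bounds of the 95% intervals were 1.20-fold for Nom1, 1.18-fold for Rbm33 and 1.23-fold for Dnajb6.

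In all, 1 of the 8 locus genes (12.5%) was called, against 22.9% of the 14610 tested genes. In the direction higher in anterior the share over all genes was 10.7%, and in the direction lower it was 12.3%. The libraries of the groups did not overlap for 3 of the 8 genes, Nom1, Ube3c and Dnajb6, against 63.5% of tested genes. The median log2 fold change of the 8 was 0.11 and the median absolute value 0.21, against -0.0087 and 0.22 over all tested genes. Neither the count nor the sizes stood above the background. DESeq2 and limma-voom also called 1 gene each, Ube3c. Leaving out 1 library at a time also left 1 call, but without anterior replicate 2 the called gene was Shh and not Ube3c.

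**Figure D2:**
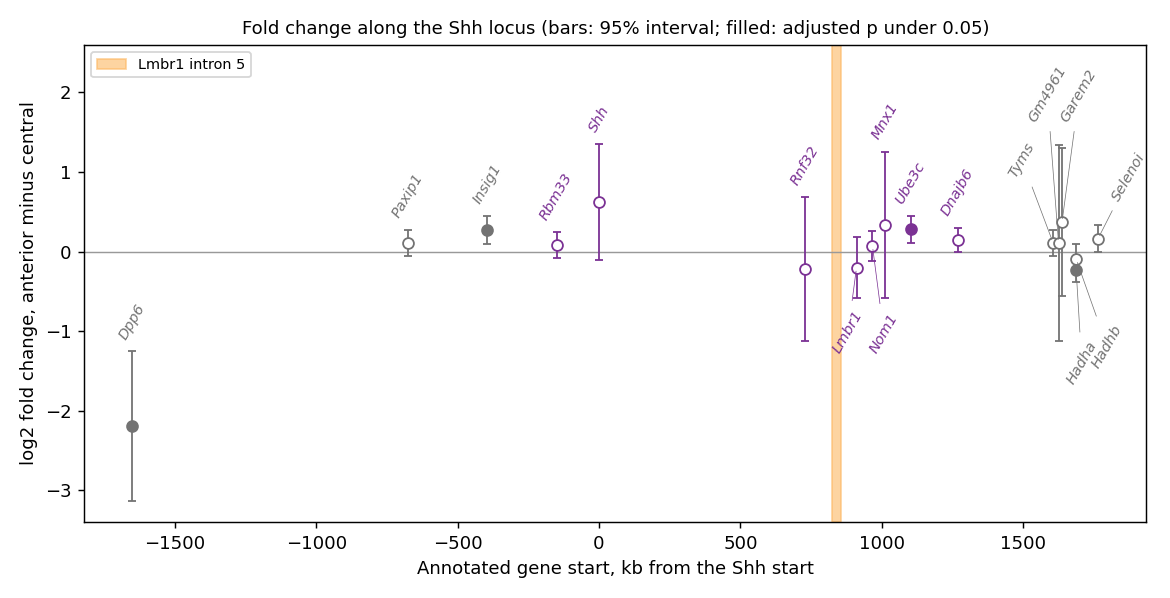
Log2 fold change of anterior over central cells against the distance of each gene start from the Shh start in kb. Bars are 95% intervals and filled points have an edgeR adjusted p-value under 0.05. Among the 8 locus genes only Ube3c, 1102 kb from Shh, is filled, and Shh has an interval of -0.10 to 1.36.

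Divided by exon length, to compare between genes, the level of Dnajb6 was the highest in every library, at 18.6 to 21.4 CPM per kb. Rbm33 followed at 12.5 to 14.1 and Ube3c at 9.63 to 12.4 CPM per kb, so that these 3 neighbours in the order did not overlap. Nom1 stood at 5.42 to 5.87 CPM per kb. Shh ranged from 4.12 to 9.62 CPM per kb and could not be ordered against Nom1, being above it in anterior replicate 1 and below it in the other 3 libraries. Lmbr1 stood at 1.66 to 2.22 CPM per kb, below Shh in every library, and above Mnx1 at 0.621 to 1.29 and Rnf32 at 0.204 to 0.317. The host gene of the enhancer was thus among the lower genes of its own neighbourhood in both populations. These values assume that all annotated exons contribute.

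**Figure D3:**
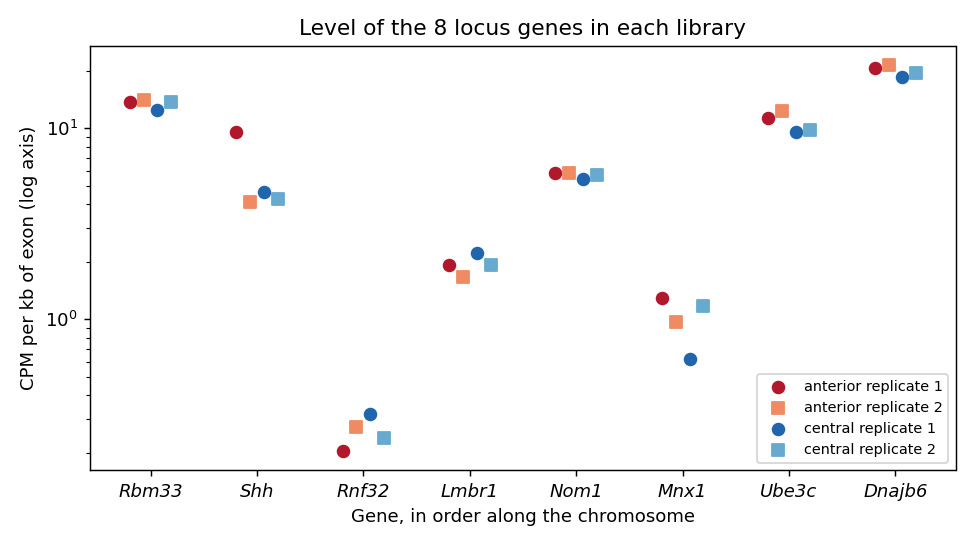
CPM per kb of exon on a log axis for the 8 locus genes in order along the chromosome, with 1 point per library. Dnajb6 is highest at 18.6 to 21.4 and Rnf32 lowest at 0.204 to 0.317 CPM per kb, and only Shh has a library far from the other 3.

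Further genes within 2 Mb of the Shh start numbered 23 in the table, of which 9 passed the filter and 3 were called (33.3%, against 22.9% of all tested genes), 1 higher and 2 lower in anterior cells. Dpp6, a potassium channel accessory subunit gene whose start lies 1650 kb away on the Rbm33 side, measured 0.540 and 0.682 CPM in the anterior and 2.99 and 2.6 CPM in the central libraries. Its log2 fold change was -2.19 ± 0.41 SE, and edgeR gave an adjusted p-value of 0.00599. Insig1, a regulator of sterol synthesis 396 kb from Shh, measured 69.5 and 73.0 against 59.8 and 58.1 CPM (log2 fold change 0.27, adjusted p-value 0.0348). Hadha, a fatty acid oxidation gene, measured 130 and 137 against 161 and 153 CPM (log2 fold change -0.23, adjusted p-value 0.0377). The call of Insig1 was lost without anterior replicate 1 (0.0866), anterior replicate 2 (0.215) or central replicate 2 (0.0590), and that of Hadha without anterior replicate 1 (0.281), anterior replicate 2 (0.146) or central replicate 1 (0.0712), as edgeR adjusted p-values. The count was then 1 without either anterior replicate, 3 without central replicate 1 and 2 without central replicate 2.

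The pathway that Shh signals through was described from a list of 19 genes, of which 17 passed the filter. The list was chosen with earlier results of these data known, so its share of calls is descriptive only. Receptors, modulators and effectors were called in 8 (47.1%, against 22.9% of all tested genes), with Gli3 higher and 7 lower in anterior cells, and the median log2 fold change was -0.07. Hhip, Ptch1 and Gli1, which hedgehog signalling is known to induce, were lower in both anterior libraries than in either central library. That held for the anterior library with high Shh too. No wider set of induced genes was examined. Hhip, a decoy receptor, measured 2.37 and 1.88 CPM in the anterior and 11 and 15.4 CPM in the central libraries. The receptor Ptch1 measured 208 and 187 against 250 and 323 CPM, and the transcriptional effector Gli1 89.1 and 82.0 against 105 and 125 CPM. Anterior replicate 1 was above anterior replicate 2 for all 3 of these genes, at 1.26-fold for Hhip, 1.11-fold for Ptch1 and 1.09-fold for Gli1, and below both central libraries. The other genes that fell were Scube3, which helps release hedgehog ligand, the co-receptors Boc and Cdon, and the effector Gli2, by between 0.62 and 1.91 on the log2 scale. Gli3, which acts mainly as a repressor of hedgehog targets in the anterior bud, measured 314 and 379 against 197 and 199 CPM (log2 fold change 0.81, edgeR adjusted p-value 0.000340). Without anterior replicate 2 the call of Gli1 was lost (edgeR adjusted p-value 0.0788).

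Of 36 genes listed for a known or possible action on Shh or the ZRS in the limb, 34 passed the filter. Of these, 24 were called (70.6%, against 22.9% of all tested genes), 13 higher and 11 lower in anterior cells. The median log2 fold change was 0.15. This list too was chosen with earlier results of these data known, so its share of calls is descriptive only. The ETS factors Etv4 and Etv5, known to keep Shh out of the anterior bud, had log2 fold changes of 1.48 and 1.33 (adjusted p-values 3.72e-06 and 9.13e-06 in edgeR), and Etv4 measured 131 and 130 against 47.0 and 46.2 CPM. Hoxd13, a known activator of Shh through the ZRS, measured 850 and 677 CPM in the anterior against 306 and 200 CPM in the central libraries (log2 fold change 1.6 ± 0.18 SE, adjusted p-value 0.000404). The largest rise in the list was that of Tfap2c, a transcription factor, at 51.7 and 65.8 against 7.11 and 10.7 CPM (log2 fold change 2.72). The posterior activator Hand2 measured 239 and 169 against 355 and 344 CPM, with a log2 fold change of -0.78 and 0.00402 as its adjusted p-value in edgeR. Gata6, a known anterior repressor of Shh, also fell, at 2.10 and 3.03 against 5.29 and 5.10 CPM (log2 fold change -1.02, edgeR adjusted p-value 0.0350). The BMP antagonist Grem1 measured 21.9 and 28.3 against 31.5 and 41.2 CPM (log2 fold change -0.54, adjusted p-value 0.0404). The ridge signal Fgf8 had the largest fall, from 5.75 and 29.2 CPM in the central libraries to 0.240 and 0.0682 CPM in the anterior ones, the last being under the floor. Ectoderm and ridge markers summed to 7.14 and 7.64 CPM in the anterior and 51.1 and 174 CPM in the central libraries, and their part in the Fgf8 value was not tested. The call of Gata6 was lost without anterior replicate 1 (0.161) or central replicate 1 (0.0660), that of Grem1 without anterior replicate 1 (0.162) or central replicate 2 (0.123), as edgeR adjusted p-values, and that of Fgf8 with limma-voom (0.119).

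The list of 18 genes for looping and enhancer contact (CTCF, cohesin and its loaders, Ldb1, Yy1, mediator and coactivators) had 4 called, all higher in anterior cells, by 0.23 to 0.32 on the log2 scale. That share of 22.2% was close to the 22.9% of all tested genes, and the median log2 fold change was 0.16. The cohesin regulator Pds5a measured 392 and 401 against 304 and 330 CPM (log2 fold change 0.32, edgeR adjusted p-value 0.00839). The insulator protein gene Ctcf measured 254 and 246 against 211 and 212 CPM (log2 fold change 0.24, edgeR adjusted p-value 0.0208). The other 2 called genes were the cohesin subunit Rad21 and the mediator subunit Med1. The cohesin loader Nipbl, at 258 and 268 against 206 and 245 CPM, did not pass (adjusted p-value 0.102 in edgeR). The count was 1 without anterior replicate 1, 0 without anterior replicate 2 (edgeR, 6 at an unadjusted p under 0.05), 5 without central replicate 1 and 9 without central replicate 2. The call of Ctcf was lost without anterior replicate 1 (0.181) or 2 (0.114), and that of Pds5a without anterior replicate 2 (0.0692), as edgeR adjusted p-values.

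**Figure D4:**
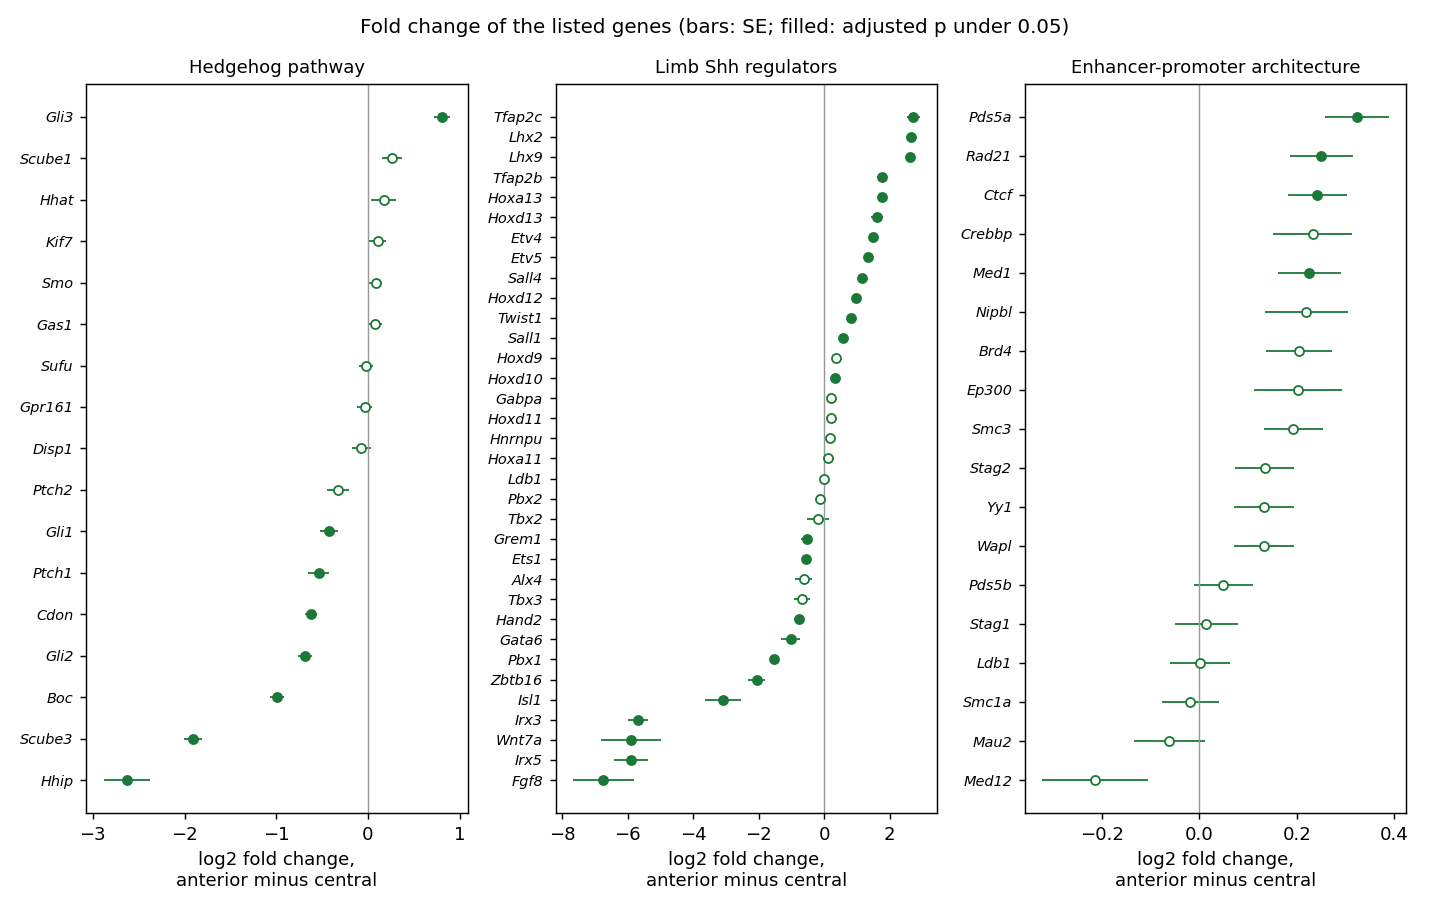
Log2 fold change of anterior over central cells for the tested genes of the hedgehog pathway, limb Shh regulator and looping lists, with standard errors. Hedgehog genes range down to -2.63 for Hhip, regulators span 2.72 for Tfap2c to -6.75 for Fgf8, and the looping genes stay close to 0, with Pds5a at 0.32.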

How the data were processed

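The deposited values are raw read counts per gene symbol, as whole numbers, for 4 libraries. STAR 2.7.9a, HTSeq and the mm10 build are named in the submitters' processing notes, and DESeq2 3.16 is listed there too. The labels state paired-end sequencing. The annotation, strand setting and read filters are not given in the sources used here. Even numbers made up 72.8% to 75.6% of counts from 1 to 10, a pattern seen when both mates are counted, so counts may overstate fragments. R 4.3.3 and edgeR 4.0.16 were used. The filter filterByExpr left 14610 genes, which were scaled by TMM and tested by the quasi-likelihood F test, anterior against central, with Benjamini-Hochberg adjustment over all tested genes at 0.05 and 2 residual degrees of freedom. The standard error is the absolute log2 fold change over the square root of F. GENCODE M21 gave positions and exon lengths and matched 96.5% of symbols. Replicates differed by more than sampling noise (chi-square per degree of freedom on halved counts 14.6 and 8.47) and were counted separately. On simulated counts with 200 changed genes, 80.4% of changes of 1 and 92.5% of changes of 2 (log2) were recovered, and 8.02% of calls were unchanged genes. The data themselves gave 3351 calls, far more than the genes changed in the simulation, so these shares may not carry over.

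The genes and lists were chosen with earlier results of these data known, so the shares of calls in them are descriptive only. Genes named were all 8 locus genes, the called members of each list with the largest rise and fall plus 13 listed regulators, called neighbours within 2 Mb, and the 5 genes most like Shh. Isl1, Osr1, Aldh1a2, Tbx3, Irx3, Irx5, Cntfr, Agtr2, Nr2f1 and several marker genes fall outside that rule and were chosen after their values were seen. As alternatives, edgeR was run without TMM scaling (library size alone), with upper-quartile factors and with size factors from DESeq2 1.42.0, and the genes were also tested by DESeq2 and by limma-voom (limma 3.58.1). Further alternatives were a minimum of 1 count, a minimum mean count of 50, a replicate block, halved counts, a threshold of 0.01, and leaving out each library. Marker lists for limb, floor plate, motor neuron, gut, blood, white blood, endothelial, muscle and cartilage cells were summed in each library. White blood cell markers summed to 16.5 and 12.4 CPM in the anterior and 7.21 and 7.07 CPM in the central libraries, endothelial markers to 4.74 and 7.53 against 22.0 and 30.8, muscle precursor markers to 0.750 and 0.511 against 84.6 and 71.7, and cartilage markers to 357 and 265 against 1338 and 1062. Some listed marker genes are not reported here.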

Additional observations from a re-analysis of the deposited data

How the results depend on the processing

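With all libraries kept, the 8 locus genes held their direction and their side of the threshold under the 9 other scalings, tests, filters and fits, with Shh at 0.52 to 0.63 (edgeR, DESeq2 or limma adjusted p-values 0.0581 to 0.549) and Ube3c at 0.24 to 0.29. At a threshold of 0.01, 1690 genes were called, and 0 locus genes (edgeR, 1 at an unadjusted p under 0.05), 1 neighbour and 1 looping gene. The looping list had 2 calls with library size alone, 2 with upper-quartile factors and 8 with no filter. Leaving out 1 library at a time, log2 fold changes ranged from -0.11 to 1.11 for Shh, 0.22 to 0.35 for Ube3c, -0.44 to 0.0028 for Rnf32, -0.041 to 0.87 for Mnx1, -0.43 to 1.04 for Bmp2, -0.22 to 0.77 for Rprm, 0.30 to 1.11 for Sema5b and -0.23 to 0.68 for Hspa1b, with fewer samples in each fit. The same fits called 2009 to 3697 genes in all, 0 to 9 of the looping list and 1 to 3 neighbours, and the cause was not tested. Replicate numbers are shared between the groups, but deviations of same-numbered libraries correlated at 0.064 across genes, which are not independent. With the replicate block, 3586 genes were called, 1 of them in the locus (Ube3c), with 9 hedgehog genes, 26 regulators, 5 looping genes and 3 neighbours. The Insig1 call was lost with library size alone (edgeR adjusted p-value 0.0540) and upper-quartile factors (0.0592), and Nipbl was called with no filter (0.0393) and with the block (0.0463). Sema5b was called with the DESeq2 Wald test (0.0446), with no filter (0.0168) and with the block (0.0231). For Mnx1 and Rnf32, at 43 to 97 counts per library, differences within their 95% intervals were not excluded.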
